A study of Mus musculus with 13 samples.

Results

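NOD-like receptors (NLRs) and inflammatory caspases are the cytosolic arm of innate sensing. The 8 genes described here are the receptor genes Nod1, Nod2, Nlrp3, Nlrc3 and Nlrc5, the adaptor gene Pycard, which encodes ASC, and the caspase genes Casp1 and Casp4, the second of which encodes mouse caspase-11. A gene was measured through the probe sets that the platform annotation gives to its symbol alone, and the probe set with the highest mean over all arrays stood for it. Of the 8 genes, 7 had such a probe set, 10 probe sets in all, and Nod2 was not analysed here. The 7 are set against 18194 genes with a probe set, of which 9380 passed a filter on low signals, as all 7 did.

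In the textbook scheme, NLRs are cytosolic proteins that recognise microbial products or cell damage through leucine-rich repeats. NOD1 recognises a peptidoglycan fragment and signals through the kinase RIPK2 to NF-κB, whereas NLRP3 recruits ASC and caspase-1 into an inflammasome. Caspase-1 matures IL-1β and IL-18 and, like caspase-11, which binds cytosolic lipopolysaccharide, cleaves gasdermin D to open pores in the cell membrane. NLRC5 is different in kind, being a transactivator of MHC class I genes, and NLRC3 is known mainly as a restraining NLR. Dendritic cells (DCs) carry such sensors at rest, before any contact with a microbe.

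Expression was read on 13 Affymetrix mouse genome arrays of cells sorted from the spleens of untreated wild-type C57BL/6 mice. The DC populations were plasmacytoid DCs (pDCs, Lin-CD11c+120G8high), CD8α conventional DCs (cDCs, Lin-CD11c highCD8α+120G8-/low) and CD11b cDCs (Lin-CD11c highCD11b+120G8-/low), and the lymphocytes were NK cells (NK1.1+TCRβ-), B cells and CD8 T cells, all with 2 arrays except B cells, which had 3. Cells were pooled from 10 to 15 mice for a DC array and from 6 to 10 for an NK cell array, while B cell replicates 1, 2 and 3 used 3, 2 and 1 mice and a CD8 T cell array used 1. The labels call B cell replicates 2 and 3 follicular B lymphocytes and give 6 weeks for their donors, and they give 6 to 8 weeks for the CD8 T cell arrays and for CD8α cDC replicate 1, with no age for the rest. Values are MAS5 signals scaled to a mean near 100 on each array, and a signal below 20 was taken as the floor. Log2 signals of replicate arrays correlated at 0.934 to 0.987, lowest for B cell replicates 1 and 2. With so few arrays in a population, their number limits the precision.

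Markers set the populations apart in part. Flt3, a growth factor receptor of DCs, averaged 1001 to 1713 in the DC populations and 4.80 to 33.7 in the lymphocyte populations. The T cell genes Cd3d, Cd3e and Cd3g were below 20 on all DC arrays. Summed DC markers (Flt3, Itgax and H2-Ab1) were 8810 to 9307 in pDCs. They reached 8257 to 9816 in B cells and 2951 to 2991 in NK cells. Summed NK cell markers (Ncr1, Klrd1 and Prf1) were 12713 to 13363 in NK cells. They reached 2579 to 2766 in pDCs and 2156 to 2365 in CD11b cDCs. Summed B cell markers (Cd79a, Ms4a1 and Pax5) were 6298 to 11318 in B cells and 302 to 365 in CD8α cDCs. Summed signals of 12 monocyte, macrophage and neutrophil markers reached 4953 to 5465 in CD11b cDCs, against 897 to 959 on the pDC arrays, 641 to 720 on the CD8α cDC arrays and 111 to 1063 on the lymphocyte arrays. Csf1r and Adgre1 made up most of that sum in CD11b cDCs, with 3330 ± 202 and 1402 ± 145 (mean ± SD, n = 2), whereas Marco, Trem1, Fcgr1, S100a8 and S100a9 did not pass the filter. B cell replicate 1 carried a plasma cell marker sum (Jchain and Sdc1) of 7948, against 274 and 573 in replicates 2 and 3. The ratio of 3' to 5' GAPDH signal was 23.9 and 11.2 on the NK cell arrays, against 3.46 to 6.30 on the others. All DC arrays were scanned in 1 period on chips of 1 lot and no lymphocyte array was, so DCs and lymphocytes cannot be told apart from scan period and lot. The same holds for CD8 T cells against every other population, since no other array shared their scan period or lot. Xist was on and the Y-linked genes off on 6 of 6 DC arrays, and the reverse held on 6 of 7 lymphocyte arrays. Except for B cell replicate 2, DCs and lymphocytes thus cannot be told apart from donor sex either. Of 5 arrays whose label gives a sex, 3 went against it, both CD8 T cell arrays and B cell replicate 2.

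Every measured gene of the family differed somewhere among the 6 populations, and each had its own order. The moderated F test of limma called 7 of 7 (adjusted p = 1.41e-09 for Nlrc3 to 0.00088 for Pycard), beside 82.8% of all genes tested. Over the 15 pairs of populations, 70 of 105 differences were called (66.7%), beside 41.4% over all genes. The pairs share populations and are not separate results. For Nlrc3, with all DC arrays at the floor, each DC subset gave the same difference from a given lymphocyte population. A gene had 7 to 12 of its 15 pairs called, against a median of 6 over all genes. For Nlrp3 this count was 4 with a floor of 1, against 9. For Nlrc5 it was 5 without either CD8 T cell array, with no filter or with a block for the sets of sample names, against 8, and for Pycard it was 4 without CD11b cDC replicate 2, against 7. No order was shared by the whole family: a DC subset held the highest mean of Nod1, Nlrp3 and Casp1, and a lymphocyte population that of Nlrc3, Nlrc5, Pycard and Casp4. None of the 7 genes had all DC arrays above all lymphocyte arrays, a pattern that 6.01% of all genes showed.

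**Figure D1:**
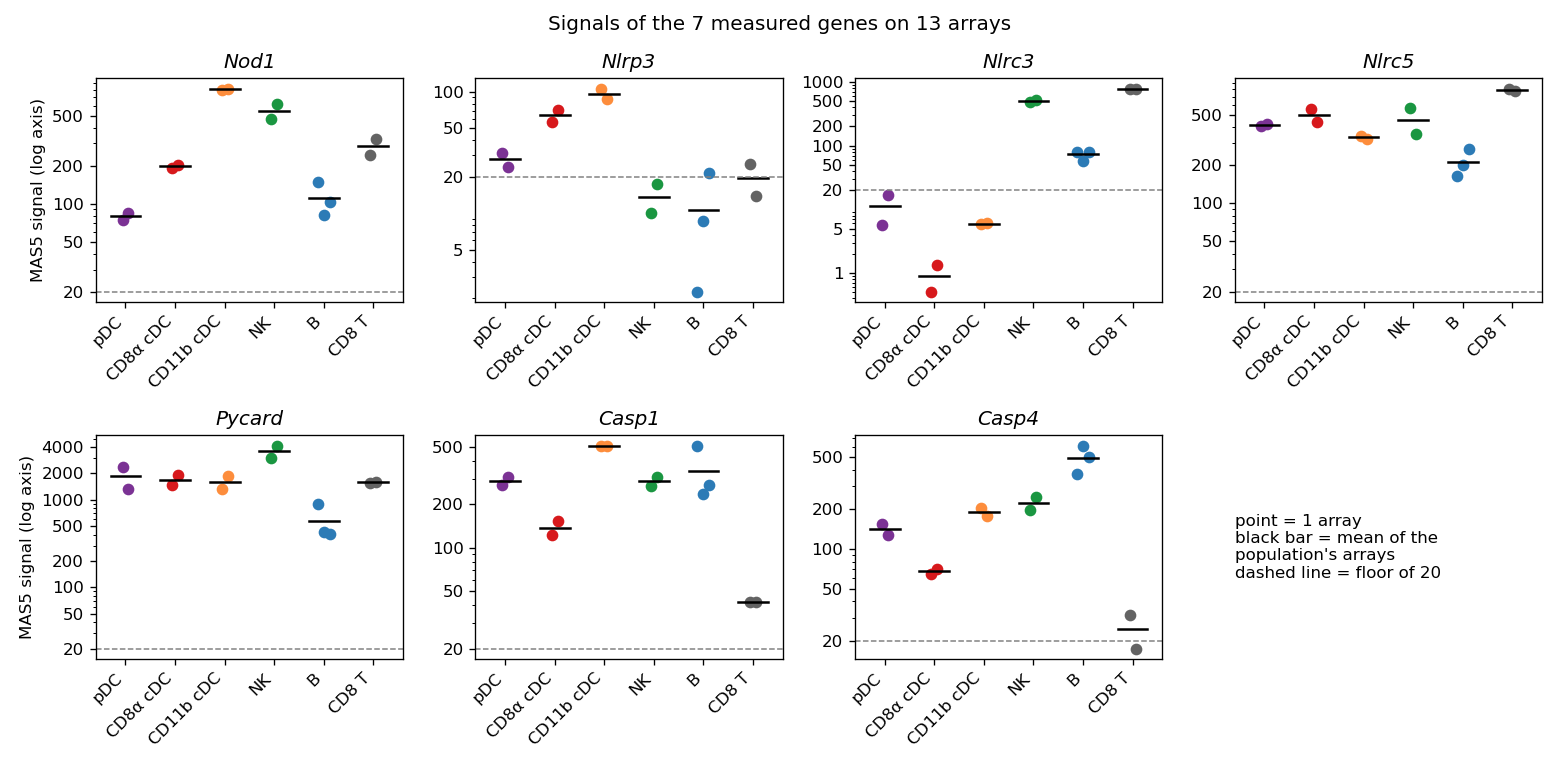
MAS5 signals (log axis) of the 7 measured genes, with 1 point per array, a black bar at the population mean and a dashed line at the floor of 20. Nod1 and Casp1 are highest in CD11b cDCs, Nlrc3 lies below 20 on all DC arrays and reaches 777 to 788 in CD8 T cells, and Casp1 and Casp4 are lowest in CD8 T cells.

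Nod1 differed between all DC subsets and was highest in CD11b cDCs. Its signal was 74.8 and 84.5 on the pDC arrays, 193 and 204 on the CD8α cDC arrays, 798 and 819 on the CD11b cDC arrays, 471 and 619 on the NK cell arrays, 148, 81.5 and 103 on the B cell arrays, and 242 and 328 on the CD8 T cell arrays. The DC subsets did not overlap, and the pDC arrays lay at the lower end of the B cell arrays. In such bulk populations, fewer cells that carry a transcript and less of it per cell cannot be told apart, here and for all values below. In limma, the log2 difference of pDCs from cDCs was -2.33 (SE 0.23, adjusted p = 1.62e-05), and CD8α cDCs stood below CD11b cDCs by -2.03 (SE 0.27, adjusted p = 0.000283), a 4.07-fold lower level. pDCs also stood below CD8α cDCs (-1.32, adjusted p = 0.00255). In the order of the means, CD11b cDCs exceeded NK cells by only 0.58, with a 95% interval of -0.01 to 1.18 and an adjusted p of 0.11 over all pairs, and NK cells exceeded CD8 T cells by 0.94 (adjusted p = 0.0167). CD8α cDCs were not called different from CD8 T cells (difference -0.51, interval -1.10 to 0.09), nor pDCs from B cells (-0.44, interval -0.98 to 0.11).

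Nod1 was high in 1 DC subset and in NK cells, and DCs as a whole were not called different from lymphocytes. The log2 difference of -0.12 had an interval of -0.45 to 0.21 (adjusted p = 0.503). Without both NK cell arrays the sign turned and the difference was called at 0.42 (adjusted p = 0.0458). The monocyte and macrophage marker sum was highest in CD11b cDCs, where Nod1 was highest too, but only 111 and 150 on the NK cell arrays, where Nod1 was next highest. Its part in the difference between the cDC subsets was not tested.

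Nlrp3, which encodes the best known inflammasome sensor, was above the floor on all DC arrays and on 2 of 7 lymphocyte arrays. Its signal was low throughout. The pDC arrays gave 31.6 and 24.2, the CD8α cDC arrays 56.7 and 71.0 and the CD11b cDC arrays 106 and 86.7, against 9.99 and 17.4 in NK cells, 2.26, 8.64 and 21.3 in B cells and 25.2 and 13.9 in CD8 T cells. All cDC arrays lay above all lymphocyte arrays, whereas the pDC arrays reached the range of the highest lymphocyte array. DCs exceeded lymphocytes by 1.40 (SE 0.11, adjusted p = 1.36e-06), and pDCs stood 2.82-fold below cDCs (-1.50, SE 0.17, adjusted p = 5.01e-05). Since 5 of 7 lymphocyte arrays were at the floor, the first of these values is set by the floor of 20. With a floor of 1 in its place the difference from lymphocytes was 2.17 (adjusted p = 0.00323), and that of pDCs from cDCs kept its size but not its call (adjusted p = 0.144).

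Between the cDC subsets, Nlrp3 differed by -0.60 (interval -1.04 to -0.15). This did not pass when adjusted within that comparison (adjusted p = 0.0621) but passed over all pairs of populations (adjusted p = 0.0343). No lymphocyte population was called different from another (adjusted p = 0.55 to 0.938), nor were pDCs from any of them (0.0785 to 0.261).

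Nlrc3 ran the other way. In NK cells it reached 493 and 525, in B cells 80.4, 58.3 and 80.7, and in CD8 T cells 788 and 777, while the DC arrays gave 0.51 to 17.0, all below the floor. All DC arrays lay below all lymphocyte arrays, as they did for 5.74% of all genes tested. Nlrc3 was at least 15.3-fold lower in DCs than in the mean of the lymphocytes (log2 difference -3.94 at the floor, adjusted p = 2.33e-10). CD8 T cells exceeded NK cells (difference of NK minus CD8 T cells -0.62, adjusted p = 0.0177), and NK cells exceeded B cells by 2.81 (adjusted p = 2.17e-07). Among the DC subsets the signals were all below the floor and have no order. The other probe set of Nlrc3 was above the floor on 6 of 7 lymphocyte arrays as well, with 60.8 and 41.3 in NK cells, 17.3, 27.6 and 27.2 in B cells and 78.2 and 52.5 in CD8 T cells, while the DC arrays gave 2.73 to 12.2.

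Between the means of DCs and lymphocytes, Nlrp3 and Nlrc3 were called in opposite directions. Their promoters are shown from 250 bases before to 50 after each RefSeq start (GRCm38.p6). Nlrp3 has 2 starts in that table, both on the plus strand, and Nlrc3 has 1 on the minus strand. Capitals mark matches on either strand to 4 motifs, namely the interferon response element (GAAA, any 2 bases, GAAA), the STAT element TTCNNNGAA, the PU box GAGGAA bound by PU.1, and the kappa B element.
Nlrp3 chr11:59541319-59541618: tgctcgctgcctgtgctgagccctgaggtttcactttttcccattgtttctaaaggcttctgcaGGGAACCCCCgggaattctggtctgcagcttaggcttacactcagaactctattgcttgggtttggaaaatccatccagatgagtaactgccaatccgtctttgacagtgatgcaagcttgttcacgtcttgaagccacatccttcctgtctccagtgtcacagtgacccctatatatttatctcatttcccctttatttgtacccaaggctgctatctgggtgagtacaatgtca
Nlrp3 chr11:59542436-59542735: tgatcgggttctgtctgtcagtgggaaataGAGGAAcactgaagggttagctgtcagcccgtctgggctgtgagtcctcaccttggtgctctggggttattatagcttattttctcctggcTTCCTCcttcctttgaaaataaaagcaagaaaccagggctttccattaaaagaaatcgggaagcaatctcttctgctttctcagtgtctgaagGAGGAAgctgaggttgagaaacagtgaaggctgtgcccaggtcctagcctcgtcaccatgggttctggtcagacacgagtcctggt
Nlrc3 chr16:3976583-3976882: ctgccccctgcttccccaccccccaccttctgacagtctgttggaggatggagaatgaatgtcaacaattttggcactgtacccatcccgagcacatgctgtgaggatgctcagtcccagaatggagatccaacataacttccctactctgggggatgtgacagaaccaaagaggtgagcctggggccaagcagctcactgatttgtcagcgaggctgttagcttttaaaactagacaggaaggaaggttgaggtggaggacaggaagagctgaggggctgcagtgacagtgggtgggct
The upstream Nlrp3 start held 1 kappa B match, which reads on both strands, and the downstream start 3 PU boxes, 2 on the plus and 1 on the minus strand. Nlrc3 held none of the 4 motifs in this window. Of all 32851 promoters of this length, 28.3% held a PU box, 8.46% a kappa B element, 8.3% the STAT element and 3.44% the interferon element, so the matches are a description of the letters only. The kappa B element was added to the search after the sequences had been seen.

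Nlrc5, the MHC class I transactivator, spanned the narrowest range of the measured members, with 3.84-fold between its highest and lowest population. The pDC arrays gave 407 and 426, the CD8α cDC arrays 561 and 442 and the CD11b cDC arrays 344 and 323, against 564 and 351 in NK cells, 163, 200 and 271 in B cells and 809 and 780 in CD8 T cells. The CD8 T cell arrays were above and the B cell arrays below all others, with the DC and NK cell arrays between them. DCs and lymphocytes differed by -0.03 (interval -0.36 to 0.31), pDCs and cDCs by 0.03 (interval -0.48 to 0.55), and CD8α and CD11b cDCs by 0.58 (interval -0.02 to 1.17, adjusted p = 0.173). The lowest step of the order, CD11b cDCs over B cells, was called at 0.69 (adjusted p = 0.0439), and the highest, CD8α cDCs against CD8 T cells at -0.68, was not (adjusted p = 0.0671).

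Of the class I pathway genes listed beside Nlrc5, the antigen-processing genes were called in 1 or more of the 3 main comparisons and the class I chains in none. B2m, H2-K1 and H2-D1, which encode the class I light chain and heavy chains, were not called in any of the 3 comparisons. Psmb9, an immunoproteasome subunit, was higher in DCs than in lymphocytes by 1.42 (adjusted p = 3.96e-06), lower in pDCs than in cDCs by a difference of -0.76 (adjusted p = 0.0128) and higher in CD8α than in CD11b cDCs by 0.83 (adjusted p = 0.0291). Its means of 2814, 6305 and 3549 in pDCs, CD8α cDCs and CD11b cDCs stood above 1536, 1305 and 1659 in NK, B and CD8 T cells. Tap1, a subunit of the peptide transporter, was likewise higher in DCs than in lymphocytes, by 0.93 (adjusted p = 0.00294). In all, 2 of the 5 class I genes were higher and 0 lower in DCs, beside 31.3% and 32.3% of all genes tested.

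Pycard, the gene of the adaptor that joins inflammasome sensors to caspase-1, was well above the floor in all 6 populations and highest in NK cells. The pDC arrays gave 2383 and 1346, the CD8α cDC arrays 1466 and 1939 and the CD11b cDC arrays 1339 and 1884, against 3010 and 4162 in NK cells, 896, 431 and 409 in B cells and 1543 and 1614 in CD8 T cells. The DC subsets overlapped one another and the CD8 T cells, the NK cell arrays lay above all others and the B cell arrays below. None of the 3 main comparisons was called, with differences of 0.22 for DCs against lymphocytes (interval -0.27 to 0.71), 0.13 for pDCs against cDCs (interval -0.63 to 0.89) and 0.09 for CD8α against CD11b cDCs (interval -0.79 to 0.96).

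The B cell level of Pycard was called lower than that of each other population, by log2 differences of 1.54 to 2.71 in size (adjusted p = 0.000138 to 0.00566). NK cells exceeded B and CD8 T cells, and CD11b cDCs stood below NK cells by a difference of -1.16 (adjusted p = 0.037), while pDCs (adjusted p = 0.0692) and CD8α cDCs (adjusted p = 0.0505) were not called different from NK cells. Without both NK cell arrays, DCs exceeded the remaining lymphocytes by 0.87 (adjusted p = 0.0119). The raised 3' to 5' ratio of the NK cell arrays stands beside their Pycard, Nod1 and Nlrc3 levels, and its part in them was not tested. B cell replicate 1, the array with the plasma cell markers, had the highest Pycard of its group. The second Pycard probe set had population means of 10.3 to 48.2, with NK cells again highest and B cells lowest, and the third 5.88 to 20.2.

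Casp1, which encodes the protease of the inflammasome, was measured in all populations and was lowest in CD8 T cells. The pDC arrays gave 273 and 308, the CD8α cDC arrays 121 and 152 and the CD11b cDC arrays 505 and 508, against 265 and 308 in NK cells, 505, 236 and 273 in B cells and 42.1 on both CD8 T cell arrays. Within the DCs the 3 subsets did not overlap, and CD8α cDCs stood 3.73-fold below CD11b cDCs (-1.90 on the log2 scale, SE 0.30, adjusted p = 0.00101). pDCs lay between them, and their difference from the mean of both cDC subsets was 0.14 (interval -0.43 to 0.72). From CD8α cDCs alone pDCs differed by 1.09 (adjusted p = 0.014) and from CD11b cDCs by -0.81 (adjusted p = 0.0534).

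DCs as a whole exceeded lymphocytes in Casp1 by 0.79 (SE 0.17, adjusted p = 0.00196). Only the CD8 T cell arrays lay below all DC arrays, and NK and B cells stood among the DC subsets. pDCs differed from NK cells by 0.02 (interval -0.65 to 0.69) and from B cells by -0.14 (interval -0.75 to 0.47). Without the 3 arrays that go against their sex label, which include both CD8 T cell arrays, the difference was -0.27 (adjusted p = 0.243). The source names of the DC and NK cell arrays and of B cell replicate 1 begin in 1 way and those of the follicular B cell and CD8 T cell arrays in another. With these 2 name sets as a block, which only B cells span, it was 0.24 (adjusted p = 0.199). B cell replicate 1 was at 505 and the follicular replicates at 236 and 273. On that array the plasma cell and the monocyte and macrophage marker sums (7948 and 1063) were also the highest of the B cell arrays, and their part in its Casp1 level was not tested.

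Casp4 was highest in B cells and, like Casp1, lowest in CD8 T cells and lower in CD8α than in CD11b cDCs. The pDC arrays gave 156 and 128, the CD8α cDC arrays 65.0 and 71.0 and the CD11b cDC arrays 206 and 178, against 198 and 247 in NK cells, 369, 611 and 499 in B cells and 31.7 and 17.4 in CD8 T cells. The B cell arrays lay above and the CD8 T cell arrays below all others. CD8α cDCs stood 2.82-fold below CD11b cDCs (-1.50, SE 0.28, adjusted p = 0.00281). CD11b cDC replicate 1 was the only array of its scan day. A fixed block for scan day therefore takes that array out of this comparison and cannot adjust for the day. The difference, then resting on 1 CD11b cDC array, was -1.39. pDCs exceeded CD8α cDCs by 1.06 (adjusted p = 0.0105), and their difference from the mean of both cDC subsets was 0.31 (interval -0.22 to 0.84).

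Between DCs and lymphocytes Casp4 differed by -0.18 (interval -0.53 to 0.16, adjusted p = 0.323), a mean over lymphocytes that held both its highest and its lowest level. B cells exceeded CD8 T cells by 4.26 (adjusted p = 2.41e-07), the largest Casp4 difference of the 15 pairs, and since 1 CD8 T cell array was below the floor its size is set by the floor in part. The value without the 3 arrays that go against their sex label, and so without CD8 T cells, was -1.33 (adjusted p = 6.99e-05). CD11b cDCs were below B cells by a difference of -1.33 in Casp4 (adjusted p = 0.0016), whereas in Casp1 they were not called different from them (0.67, interval 0.06 to 1.28, adjusted p = 0.0768).

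**Figure D2:**
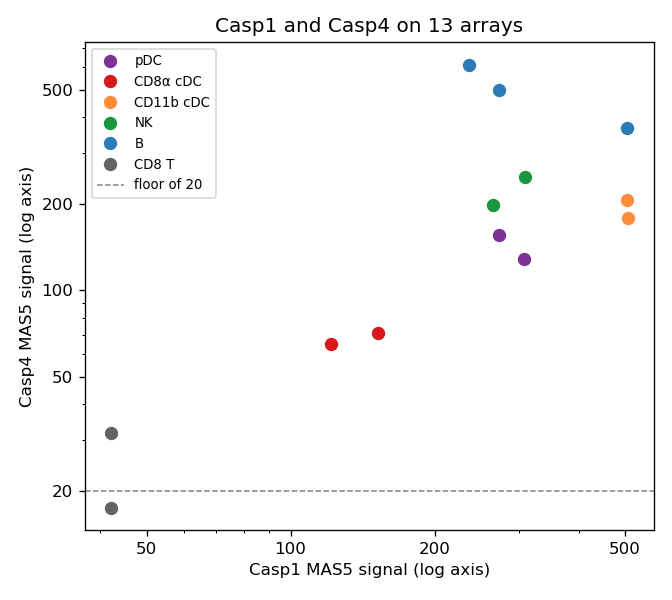
MAS5 signals of Casp1 (horizontal, log axis) and Casp4 (vertical, log axis) with 1 point per array in the colour of its population and a dashed line at the floor of 20. CD8 T cells lie lowest and CD8α cDCs next on both axes, and the B cell arrays lie at the top, with Casp4 signals of 369 to 611.

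Casp1 and Casp4 are neighbours on chromosome 9, and their log2 signals correlated at 0.82 over the 13 arrays. The arrays are not independent points, since they fall into 6 populations that share their levels. Their promoters are shown in the same way, both on the plus strand, because the pair was measured side by side in each population.
Casp1 chr9:5298267-5298566: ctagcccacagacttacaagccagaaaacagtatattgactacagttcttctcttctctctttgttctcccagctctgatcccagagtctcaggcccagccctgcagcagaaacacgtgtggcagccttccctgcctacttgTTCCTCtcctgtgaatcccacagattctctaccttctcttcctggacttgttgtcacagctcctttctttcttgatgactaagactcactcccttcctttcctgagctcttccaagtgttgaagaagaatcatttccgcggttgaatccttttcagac
Casp4 chr9:5308599-5308898: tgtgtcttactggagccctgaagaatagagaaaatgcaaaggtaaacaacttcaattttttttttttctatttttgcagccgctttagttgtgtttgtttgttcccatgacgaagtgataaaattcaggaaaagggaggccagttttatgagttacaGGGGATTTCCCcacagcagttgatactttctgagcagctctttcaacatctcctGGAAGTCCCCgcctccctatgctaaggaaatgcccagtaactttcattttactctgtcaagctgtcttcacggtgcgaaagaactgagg
Casp1 held 1 PU box on the minus strand. Casp4 held 4 kappa B matches, 3 of which overlap, in 2 runs of capitals, and no PU box. Neither held the interferon or the STAT element in this window. A further Casp4 start close downstream has the same matches. Of the other members, Nod1 held the STAT element at 1 of its 2 starts and Pycard a PU box. Promoters were found for 7 of the 8 genes.

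Among the 3 main comparisons, members were called in a different set each time. Between DCs and lymphocytes 3 of 7 were called, Nlrp3 and Casp1 higher and Nlrc3 lower, beside 63.6% of all genes tested. Between pDCs and cDCs 2 of 7 were called, Nod1 and Nlrp3, both lower in pDCs, beside 36.7% of all genes and 19.1% that were lower. Between CD8α and CD11b cDCs 3 of 7 were called, Nod1, Casp1 and Casp4, all lower in CD8α cDCs, beside 19.5% of all genes and 10.6% that were lower. The median difference of the 7 was -0.60 there, beside 0 over all genes. Of the 12 monocyte, macrophage and neutrophil markers, 7 were tested, of which 5 were lower and 1 higher in CD8α than in CD11b cDCs, and their part in the member differences was not tested. With scaling on rank-invariant probe sets the median over all genes moved to -0.11 in that comparison, and the share of called genes that were higher to 34.5%, against 45.9% with the deposited scale. For pDCs against cDCs the median moved to 0.11 and that share to 60.3%, against 48.1%. None of the member calls named here was lost under that scaling.

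**Figure D3:**
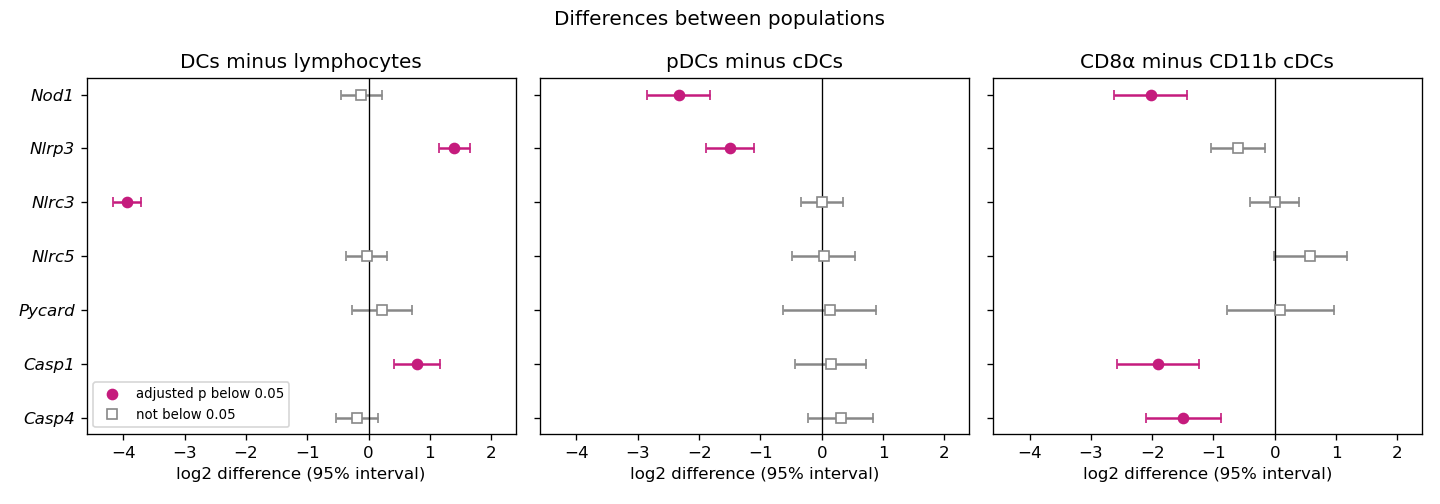
Log2 differences of the 7 measured genes in the 3 main comparisons (horizontal axes), as points with 95% intervals from limma. Filled circles mark an adjusted p below 0.05: Nlrp3, Nlrc3 and Casp1 between DCs and lymphocytes, Nod1 and Nlrp3 between pDCs and cDCs, and Nod1, Casp1 and Casp4 between CD8α and CD11b cDCs.

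The tested genes among the other NLRs were all higher in the mean of the DCs than in that of the lymphocytes. Of 13 listed, 8 had a probe set and 5 passed the filter, and all 5 were higher in DCs than in lymphocytes, beside 31.3% of all genes, with a median difference of 1.87 against -0.02 over all genes. Genes that pass the filter through a population where they are high are more likely to differ, so this count covers only those 5. Ciita, the MHC class II transactivator, averaged 108 ± 10.4, 438 ± 76.8 and 422 ± 55.5 in pDCs, CD8α cDCs and CD11b cDCs, against 13.6 ± 17.3, 132 ± 25.7 and 14.5 ± 3.94 in NK, B and CD8 T cells. It was higher in DCs by 2.79 (adjusted p = 1.38e-08) and lower in pDCs than in cDCs by a difference of -1.99 (adjusted p = 1.33e-05). Naip5 and Naip6, which detect flagellin, and Naip2, which detects a bacterial secretion rod protein, were higher in DCs by 1.87, 2.93 and 1.30. The Naip genes are close paralogs whose probe sets may share transcripts. In Naip2 and Naip5 the NK cells stood at the DC level, with 202 ± 24.0 and 291 ± 30.7, and the lymphocyte mean was low through B and CD8 T cells. Nlrx1, a mitochondrial NLR, was higher in DCs by 1.08 and lower in CD8α than in CD11b cDCs by a difference of -1.26 (adjusted p = 0.00455).

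Of 8 further inflammasome sensors and regulators, all measured, Mefv, P2rx7, Aim2 and Brcc3 were higher and Panx1 and Txnip lower in DCs than in lymphocytes. Of all genes tested, 31.3% were higher and 32.3% lower there. Between pDCs and cDCs 3 were higher (Panx1, Txnip and Nek7) and 1 lower, beside 17.7% and 19.1% of all genes, and between the cDC subsets 1 was higher and 3 lower in CD8α cDCs, beside 8.96% and 10.6%. Mefv, which encodes pyrin, showed the widest range, averaging 21.6 ± 4.56, 222 ± 5.43 and 584 ± 37.8 in pDCs, CD8α cDCs and CD11b cDCs, against 12.9 to 25.4 as the means of NK, B and CD8 T cells. It was lower in pDCs than in cDCs by a difference of -4.01 (adjusted p = 3.93e-09) and in CD8α than in CD11b cDCs by -1.40 (adjusted p = 7.14e-05). Aim2, the sensor of cytosolic DNA, was higher in DCs by 1.40 (adjusted p = 0.000265), and P2rx7, the ATP-gated channel upstream of NLRP3, by 2.37 (adjusted p = 6.25e-08). Aim2 averaged 53.6, 80.5 and 113 in pDCs, CD8α cDCs and CD11b cDCs, against 16.3, 54.1 and 21.7 in NK, B and CD8 T cells. Its pDCs thus stood at the B cell level. P2rx7 was the only one of the 8 that was higher in CD8α than in CD11b cDCs, by 1.49 (adjusted p = 0.000871). Panx1, a membrane channel, was lower in DCs by a difference of -0.79. Its CD8α cDCs averaged 74.9 ± 6.47 and its CD11b cDCs 291 ± 14.2 (difference -1.96, adjusted p = 5.9e-05), with 307 ± 76.6 in pDCs and 241 to 438 as the means of the lymphocytes. Txnip, which binds thioredoxin, was lower in CD8α than in CD11b cDCs too (-1.25, adjusted p = 0.00338).

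The gasdermin genes, which encode targets of caspases, were higher in DCs than in lymphocytes and lower in pDCs than in cDCs. Of 8 genes of the caspase partner list 5 were tested. Gsdmd and Gsdme were higher and Casp8 lower in DCs, beside 31.3% and 32.3% of all genes. Gsdmd, Gsdme and Serpinb1a were lower in pDCs than in cDCs, beside 19.1% of all genes. Between the cDC subsets 0 of the 5 were called by limma, beside 19.5% of all genes (0 at an unadjusted p under 0.05). Gsdmd, the pore protein cut by caspase-1 and caspase-11, averaged 232 ± 34.7, 449 ± 17.0 and 642 ± 123 in pDCs, CD8α cDCs and CD11b cDCs, against 400 ± 140, 210 ± 86.4 and 170 ± 29.2 in NK, B and CD8 T cells. It was higher in DCs by 0.78 (adjusted p = 0.00599) and lower in pDCs than in cDCs by a difference of -1.21 (adjusted p = 0.0102). Between the cDC subsets it differed by -0.50 (SE 0.36, adjusted p = 0.396). Gsdme, another gasdermin, was higher in DCs by 1.14 and lower in pDCs by -0.90. Serpinb1a, a protease inhibitor, averaged 30.3 ± 12.7 in pDCs against 196 ± 14.1 and 153 ± 51.4 in CD8α and CD11b cDCs (-2.56, adjusted p = 0.00143), and B cells gave 1409 ± 1137 (n = 3).

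In the list of NOD signalling genes, 21 of 24 had a probe set and all 21 were tested, while Ripk2, Card9 and Chuk were not analysed here. Birc3, Slc15a3, Slc15a4 and Slc46a3 were higher and Ikbkg, Tnfaip3 and Atg16l1 lower in DCs than in lymphocytes, beside 31.3% and 32.3% of all genes. Tnfaip3, Slc15a3, Slc15a4 and Erbin were higher and Tab2 and Slc46a3 lower in pDCs than in cDCs, beside 17.7% and 19.1%. Between CD8α and CD11b cDCs 0 were higher and 5 lower, beside 8.96% and 10.6% of all genes, with a median of -0.57. The 5 were Xiap (-0.89) and Birc2 (-1.23), ubiquitin ligases of the NOD complex, Otulin (-1.15), which removes linear ubiquitin, and the endosomal transporters Slc15a3 (-3.32) and Slc15a4 (-2.19), which carry muropeptides. Nod1 was lower in CD8α cDCs as well. Slc15a3 averaged 811 ± 121, 46.6 ± 1.64 and 469 ± 60.0 in pDCs, CD8α cDCs and CD11b cDCs, against 5.78 ± 3.38, 165 ± 32.3 and 3.49 ± 2.46 in NK, B and CD8 T cells. Both transporters were higher in pDCs than in cDCs, by 2.45 and 1.36, whereas Nod1 was lower there. Slc46a3, a lysosomal transporter, was higher in DCs than in lymphocytes by 4.31 (adjusted p = 9.83e-08) and lower in pDCs than in cDCs by a difference of -2.16, with 3740 ± 105 in CD11b cDCs. Tnfaip3, the NF-κB inhibitor A20, was lower in DCs by -0.51 (adjusted p = 0.0195) and highest in NK cells at 3112 ± 757.

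The cytokines that caspase-1 matures lay in cDCs, and the receptor of IL-18 in NK and CD8 T cells. Il1b averaged 87.4 ± 17.4, 1528 ± 64.4 and 3110 ± 488 in pDCs, CD8α cDCs and CD11b cDCs, against 22.4 to 66.1 as the means of NK, B and CD8 T cells. It was higher in DCs by 4.52 (adjusted p = 7.09e-08) and lower in pDCs than in cDCs by a difference of -4.65 (adjusted p = 4.01e-06). Il18 averaged 51.7 ± 25.4, 377 ± 25.0 and 349 ± 28.4 in pDCs, CD8α cDCs and CD11b cDCs, against 28.2 ± 13.4, 60.1 ± 74.7 and 11.9 ± 4.80 in NK, B and CD8 T cells, and was higher in DCs by 2.72 (adjusted p = 0.000269). Il18r1, a chain of the IL-18 receptor, was below the floor as a mean in the DC subsets, against 4052 ± 742 in NK cells, 29.1 ± 23.0 in B cells and 989 ± 162 in CD8 T cells. Il18rap, the other chain, followed the same order. In all, 8 of 12 genes of the IL-1 family list were tested. Il1b, Il18 and Il1rn were higher and Il18r1, Il18rap, Il1rap and Sigirr lower in DCs, beside 31.3% and 32.3% of all genes. The decoy receptor Il1r2 and the antagonist Il1rn were lower in CD8α than in CD11b cDCs, by -2.95 and -2.21, whereas Il1b itself was not called there (-1.02, SE 0.45, adjusted p = 0.152).

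**Figure D4:**
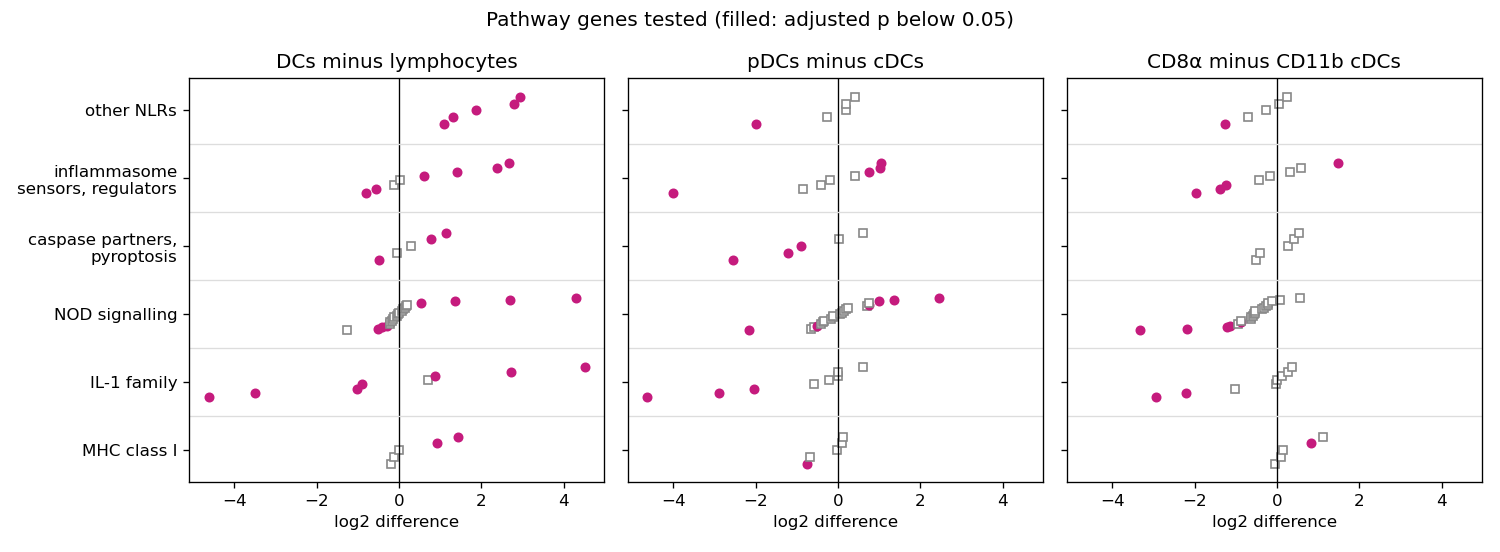
Log2 differences (horizontal axes) of the tested genes of 6 pathway lists (rows) in the 3 main comparisons, with 1 point per gene. Filled circles mark an adjusted p below 0.05: all 5 other NLR genes are higher in DCs than in lymphocytes, and 5 NOD signalling genes are lower in CD8α than in CD11b cDCs.

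Among all genes tested, those nearest to each member by Pearson correlation over the 13 arrays were as follows. Nod1 was nearest to Abcb1a (0.96), a drug efflux pump, Ubac2 (0.95) and Rgs3 (0.94), and Abcb1a averaged 18.0, 49.8 and 766 in pDCs, CD8α cDCs and CD11b cDCs. Nlrp3 was nearest to Ppp1r14a, Igsf6 and Rtn1 (all 0.98), which were at or below the floor in most lymphocyte arrays and reached 1697, 974 and 768 in CD11b cDCs. Nlrc3 was nearest to Tecpr1 (0.99), Gtf2ird2 (0.98) and Trbv1 (0.98), the last a T cell receptor segment, whose mean of 2160 in NK cells stood below 6462 in CD8 T cells. Nlrc5 was nearest to Plscr3 (0.94), Arf3 (0.91) and Racgap1 (0.90), and Pycard to Hpcal1 (0.95), Itgb7 (0.94) and Zyx (0.94). Casp1 was nearest to Ccdc50 (0.93), Rnf130 (0.92) and 4833407H14Rik (0.91), and Casp4 to Icmt (0.96), Purb (0.94) and Khnyn (0.94). Neither caspase was among the 3 nearest genes of the other. Within the family, Nlrc5 and Casp4 had the most opposed pattern, with a correlation of -0.88, CD8 T cells being highest in Nlrc5 and lowest in Casp4 and B cells the reverse.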

How the data were processed

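The authors amplified RNA of each sorted population in 2 rounds from 100 ng, ran it on Affymetrix mouse genome arrays, and computed the deposited intensity values with MAS5 at a target intensity of 100. Deposited array records, which served for scan day, chip lot and RNA amount, list 50 ng in B cell replicates 2 and 3 and 89 ng in pDC replicate 2.

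Of 45101 probe sets, 34958 had 1 gene symbol in the platform annotation, 932 had several and 9211 none, and symbols were updated by gene ID. The probe set with the highest mean represented a gene. Signals were floored at 20 and log2 transformed. A gene was tested if 1 population or more had a signal of 50 or above on all of its arrays, which left 9380 genes. R 4.3.3 and limma 3.58.1 fitted 1 model with 6 population means (7 residual degrees of freedom). Tests were two-sided with Benjamini-Hochberg adjustment over all genes, for pairs over all genes and the 15 pairs together, at a threshold of 0.05. P-values rest on the spread between these arrays after flooring, pooled over the 6 populations and moderated by limma over all genes. Arrays at the floor add no spread. A common spread is assumed, although the number of mice per array differed between populations. The fit was tested on simulated data.

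The members, gene lists and motifs were chosen with earlier results of these data known. Named genes were all members, up to 4 genes of each pathway list with the widest range of means and the 3 genes nearest to each member; further called genes of a list were named after their values were seen. According to the methods, DC and NK cell duplicates came from independent sorts. Same-numbered arrays were not taken as pairs. Their deviations from the population means correlated at -0.20 to 0.18, and the correlation exceeded 0.1 in 8 of 30 cases. These cases are not independent, since the deviations of duplicate arrays mirror each other and cases between populations with duplicates repeat the same value. Some cases also join populations sorted in other experiments. The check therefore cannot decide whether same-numbered DC or NK cell arrays belong together. The alternatives tried are listed with their effect in the closing section.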

Additional observations from a re-analysis of the deposited data

How the results depend on the processing

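Alternatives changed the normalization, the floor, the filter, the probe set summary, and the variance prior, added a block (replicate number, name set or scan day), and left out each array in turn. The exclusion of the 3 arrays that go against their sex label was chosen after seeing the data. The count of genes called between CD8α and CD11b cDCs moved to 1089 with the scan day as a fixed block and to 1112 to 2412 without 1 array each (1112 without CD8α cDC replicate 2), against 1830. Small differences that were not called changed sign, and so did the called Casp1 difference between DCs and lymphocytes. For Pycard between CD8α and CD11b cDCs the value was -0.015 with quantile normalization, -0.048 with rank-invariant scaling and -0.16 with the scan day block. For Nlrc5 between DCs and lymphocytes it was 0.037 with the replicate block, 0.26 with the name set block, 0.087 without the follicular B cell arrays, 0.017 without NK cells and 0.42 without the 3 arrays. For Pycard there it was -0.38 with the name set block and -0.021 without the follicular arrays, and for Casp4 0.14 with the name set block and 0.15 without NK cells. Nod1 without NK cells was 0.42 and Casp1 without the 3 arrays -0.27, as given above. Without 1 array each, Nlrc5 ranged from -0.14 to 0.086 between DCs and lymphocytes and from -0.055 to 0.12 between pDCs and cDCs, and Pycard from -0.28 to 0.54 between pDCs and cDCs and from -0.16 to 0.33 between CD8α and CD11b cDCs. Casp1 between DCs and lymphocytes stayed called at 0.72 to 0.90 there. Nlrp3 between the cDC subsets was called with a floor of 50 (adjusted p = 0.0105) and rank-invariant scaling (0.0303). Nod1 between DCs and lymphocytes was called with the name set block (-0.50, adjusted p = 0.0391), and Casp4 with a floor of 50 (-0.51, adjusted p = 0.00583). With a floor of 1 Nlrc3 differed among DC subsets (1.90 for pDCs against cDCs, -2.38 for CD8α against CD11b cDCs) on signals all below 20. The cause of these changes was not tested. The replicate block changed no member call in the 3 main comparisons, but 2 calls over the pairs of populations were lost, Nlrp3 between CD8α and CD11b cDCs (adjusted p = 0.0527) and Casp1 between CD11b cDCs and NK cells (0.0709). Of the alternative values of single-gene tests, 705 kept their call and, where they have one, their direction. A further 22 changed direction, and of the rest 8 gained and 3 lost a call. The 705 include Nlrc3 differences of 0 among DC subsets, where all signals were below the floor. The scan day as a fixed block could not be fitted for DCs against lymphocytes, and as a random block it changed no member call in the 3 main comparisons. In the comparisons among DC subsets the fixed block only takes out CD11b cDC replicate 1, the single array of its scan day, and adjusts for nothing. On each array 49.1 to 58.3% of probe sets lay below the floor, which limits folds at low levels.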
